A study of Homo sapiens with 10 samples.

Results

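The genes described here are 29 genes of cholesterol and fatty acid synthesis, chosen by name as enzymes, regulators and carriers of the programme that sterol regulatory element-binding proteins (SREBPs) control, out of 32705 genes with at least 1 read count in any library. They were chosen with earlier results of these data known. Their messenger RNA was measured by RNA-sequencing in U2OS cells, a human osteosarcoma line, 48 h after transfection with a pool of control siRNAs or a pool of siRNAs against DDX41, which encodes a DEAD-box RNA helicase. There were 5 control knockdown and 5 DDX41 knockdown libraries, all of polyadenylated RNA from this single line prepared with a stranded kit. Both groups were transfected, so an effect of transfection common to them is not visible in the comparison. The control knockdown libraries held 23393764 to 24598860 counted reads and the DDX41 knockdown libraries 21807041 to 24896398. The labels number the replicates but do not say whether they came from separate cultures, and the p-values therefore measure the spread between these libraries, which may be technical.

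Cholesterol is built from acetyl-CoA through mevalonate, isoprenoid diphosphates, squalene and lanosterol, and fatty acids are built from the same precursor. SREBPs are transcription factors held as precursors in the membrane of the endoplasmic reticulum. When sterols are scarce, SCAP escorts them to the Golgi, where they are cleaved and released to the nucleus, and INSIG proteins retain the complex when sterols are plentiful. SREBP2, the product of SREBF2, acts mainly on sterol genes, while SREBP1, the product of SREBF1, acts mainly on fatty acid genes.

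DDX41 itself was counted at 49.1, 49.4, 47.3, 47.2 and 50.5 CPM (read counts scaled for library size) in control knockdown replicates 1 to 5. In DDX41 knockdown replicates 1 to 5 it stood at 11.5, 13.7, 12.4, 11.2 and 12.3 CPM. Every DDX41 knockdown library lay far below every control library, in accordance with the labels. The log2 fold change was -1.99 (standard error 0.05, edgeR quasi-likelihood test, Benjamini-Hochberg adjusted p = 4.47e-24). Genes of mesenchymal cells were abundant, with SPARC at 2807 ± 32.8 CPM and VIM at 2465 ± 51.0 CPM in control knockdown (SD, n = 5), whereas COL1A2 at 0.448 ± 0.203 CPM and TWIST1 at 0.00817 ± 0.0183 CPM were nearly absent. Of the 7 mesenchymal markers, 5 were tested, with 2 higher and 2 lower in DDX41 knockdown, beside 30.3% and 32.1% of all tested genes. The 10 markers of other cell types summed to 37.5 to 42.7 CPM in control and 14.1 to 16.5 CPM in DDX41 knockdown libraries. CD34, at 30.4 ± 1.49 CPM in control and 4.66 ± 0.900 CPM in DDX41 knockdown (SD, n = 5 each), made up most of the sum in control, and EPCAM, at 7.99 ± 0.447 and 8.31 ± 0.742 CPM (SD, n = 5 each), was the largest part after DDX41 knockdown, while the fat cell marker ADIPOQ had no counts and the liver marker ALB was at 0.0496 ± 0.0535 CPM in control knockdown. The part of this difference in the results that follow was not tested. In bulk RNA, fewer cells of a kind and less RNA per cell cannot be told apart.

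The comparison asks whether the programme moved as a unit after DDX41 knockdown. Members were called in both directions, but so were large shares of all tested genes, so this alone does not answer the question. All 29 members passed the filter on low counts and were among 16143 tested genes. At an adjusted p under 0.01 (edgeR), 15 of 29 members were higher in DDX41 knockdown cells, or 51.7%, beside 30.3% of all tested genes. A further 7 members, or 24.1%, were lower, beside 32.1% of all tested genes, and 7 were not called. The median log2 fold change was 0.17 over the members and -0.00 over all tested genes. Most changes were small. Among called members beyond an absolute log2 fold change of 0.25, 9 were higher and 2, AACS and LSS, were lower. The 25th and 75th percentiles over all tested genes were -0.32 and 0.25. With an absolute log2 fold change over 0.5 also required, 3 of the 29 members were higher (HMGCS1, MSMO1 and ELOVL6), a share close to the 9.81% of all tested genes. Under the same rule 0 were lower, beside 15.7%. The lowest member value was -0.41, for LSS, so no threshold on the p-value alone set that 0. The CPM of DDX41 knockdown and control libraries did not overlap for 18 of the 29 members, 12 higher and 6 lower, where 26.7% and 29.3% of all tested genes were so separated.

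**Figure D1:**
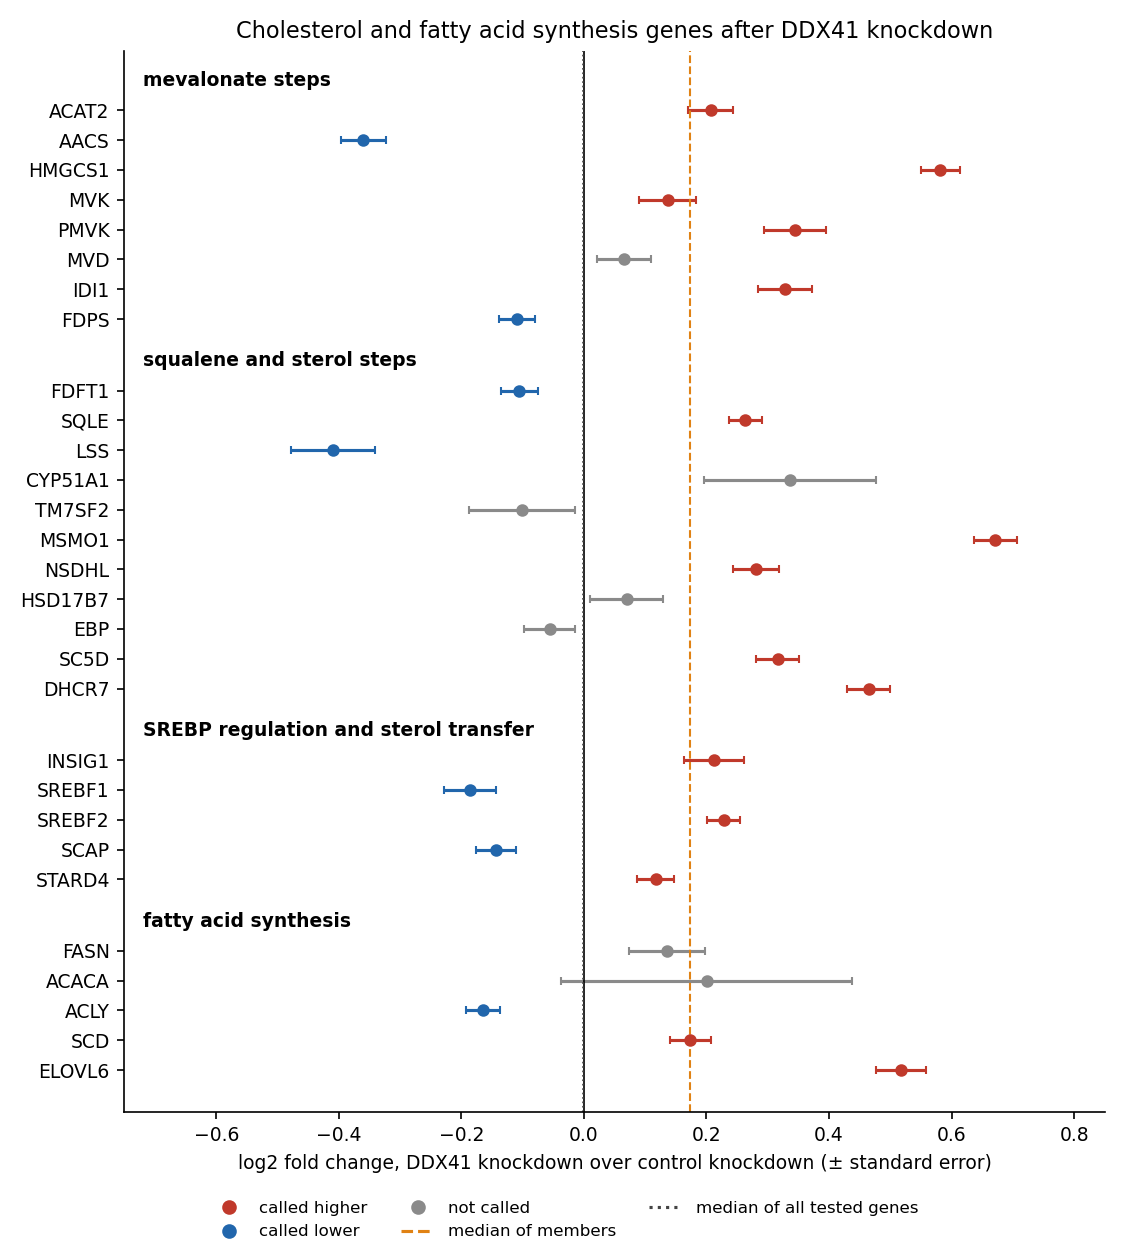
Log2 fold change of each of the 29 members (points, with standard error as bars) between 5 DDX41 knockdown and 5 control knockdown libraries, grouped by role and in pathway order. Values run from -0.41 for LSS to 0.67 for MSMO1, and each role group holds genes called higher and genes called lower.

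The sequences before the start sites of 6 members are shown because members of the programme are classically grouped by promoter elements. They are HMGCS1 and MSMO1, with the highest log2 fold changes, AACS and LSS, with the lowest, and SREBF2 and INSIG1, with matches to elements that SREBPs bind. RefSeq windows on GRCh38.p14, from 250 bases before to 50 after a start site, were matched for 25 of the 29 members. They were searched on both strands for TCACNCCAC (core of a sterol regulatory element), TCACNTGA (an E-box-like element) and CCAAT (the box bound by NF-Y). Only the 250 bases before the start are printed, 5′ to 3′ on the gene's strand, with matches on either strand in capitals. The windows lie at chr5:43313413-43313662, minus strand (HMGCS1), chr4:165327419-165327668, plus strand (MSMO1), chr12:125065185-125065434, plus strand (AACS), chr21:46228775-46229024, minus strand (LSS), chr22:41832855-41833104, plus strand (SREBF2) and chr7:155297628-155297877, plus strand (INSIG1).
HMGCS1: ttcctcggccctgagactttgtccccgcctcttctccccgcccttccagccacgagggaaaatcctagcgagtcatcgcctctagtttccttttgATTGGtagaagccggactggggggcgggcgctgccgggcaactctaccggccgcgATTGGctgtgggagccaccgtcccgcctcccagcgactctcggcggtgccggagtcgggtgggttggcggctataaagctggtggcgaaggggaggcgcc
MSMO1: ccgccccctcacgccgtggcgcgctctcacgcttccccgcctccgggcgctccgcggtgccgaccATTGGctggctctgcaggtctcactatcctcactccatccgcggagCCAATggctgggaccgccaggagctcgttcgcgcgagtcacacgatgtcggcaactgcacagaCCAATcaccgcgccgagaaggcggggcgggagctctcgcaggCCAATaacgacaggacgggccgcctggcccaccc
AACS: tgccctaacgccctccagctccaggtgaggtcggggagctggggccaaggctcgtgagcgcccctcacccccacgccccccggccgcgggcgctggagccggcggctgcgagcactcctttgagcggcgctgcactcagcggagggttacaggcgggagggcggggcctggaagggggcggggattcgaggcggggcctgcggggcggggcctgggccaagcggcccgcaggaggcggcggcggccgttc
LSS: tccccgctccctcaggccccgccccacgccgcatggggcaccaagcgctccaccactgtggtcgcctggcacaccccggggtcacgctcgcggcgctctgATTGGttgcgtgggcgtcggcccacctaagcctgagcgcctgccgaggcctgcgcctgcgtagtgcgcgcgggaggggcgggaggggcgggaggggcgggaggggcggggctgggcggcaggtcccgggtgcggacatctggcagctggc
SREBF2: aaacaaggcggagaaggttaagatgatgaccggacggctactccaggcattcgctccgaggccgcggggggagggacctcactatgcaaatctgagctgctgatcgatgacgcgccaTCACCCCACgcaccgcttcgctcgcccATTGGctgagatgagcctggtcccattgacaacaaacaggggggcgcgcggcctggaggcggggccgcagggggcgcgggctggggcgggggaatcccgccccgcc
INSIG1: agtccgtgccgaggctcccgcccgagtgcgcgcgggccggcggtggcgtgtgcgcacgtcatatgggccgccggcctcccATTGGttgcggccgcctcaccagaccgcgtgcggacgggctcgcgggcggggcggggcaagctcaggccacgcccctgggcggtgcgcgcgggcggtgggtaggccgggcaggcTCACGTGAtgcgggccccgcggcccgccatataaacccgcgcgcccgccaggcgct

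HMGCS1 has a second window, not shown, without a match. In the printed bases, MSMO1 held 4 matches to CCAAT, HMGCS1 held 2, LSS held 1 and AACS held none. The match to TCACNCCAC in SREBF2 began 133 bases before the start site, and no other of the 25 members with a window had one. TCACNTGA was matched in INSIG1, 56 bases before the start, and in EBP, 127 bases before it. Among all 35116 full windows, with the 50 bases after the start included, 1.13% held TCACNCCAC, 3.79% held TCACNTGA and 34.6% held CCAAT. Of the 33 windows of members, 3.03%, 6.06% and 69.7% did. Counted by gene, 1.47%, 5.204% and 42.6% of the 11491 tested genes with a window had a match to TCACNCCAC, TCACNTGA and CCAAT, beside 1, 2 and 19 of the 25 members. CCAAT was matched for 11 of 13 members called higher and for 3 of 6 called lower, and these numbers are too small to compare. Matches overlapped each other only in IDI1 and NSDHL, where CCAAT was read on both strands at the same place. A match is a description of the letters in the window and not a site of binding.

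Among the 8 genes of the mevalonate steps, 5 were higher, 2 were lower and 1 was not called, with a median log2 fold change of 0.17. The shares higher and lower were 62.5% and 25%, beside 30.3% and 32.1% of all tested genes. HMGCS1, which makes HMG-CoA, lies on GRCh38 at chr5:43287470-43313512 (ENSG00000112972.14). Its level was 203, 200.4, 207, 209 and 198 CPM in control knockdown replicates 1 to 5 and 311, 277, 317, 318 and 299.8 CPM in DDX41 knockdown replicates 1 to 5. The groups were far apart, and replicate 2 was the lowest of the DDX41 knockdown libraries. HMGCS1 averaged 203 ± 4.32 and 304 ± 16.9 CPM (SD, n = 5 each) and rose by 0.58 on the log2 scale (standard error 0.03, edgeR quasi-likelihood test, Benjamini-Hochberg adjusted p = 1.00e-15), and 8.29% of all tested genes had a larger value.

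AACS, which makes acetoacetyl-CoA from the ketone body acetoacetate and so feeds the same step, moved the other way. It lies at chr12:125065434-125143333 (ENSG00000081760.16). Its level was 62.7, 63.3, 57.8, 63.7 and 62.4 CPM in control replicates 1 to 5 and 46.4, 46.1, 48.3, 50.5 and 50.02 CPM in DDX41 knockdown replicates 1 to 5. Control replicate 3 was low within its group but still above every DDX41 knockdown library. AACS fell by 0.36 on the log2 scale (standard error 0.04, edgeR quasi-likelihood test, Benjamini-Hochberg adjusted p = 8.41e-10). ACAT2, the thiolase that joins acetyl-CoA units at the entry to the pathway, rose by 0.21 (edgeR adjusted p = 1.31e-05), although its libraries overlapped between groups, at 74.9 to 84.4 CPM in control and 83.6 to 95.5 CPM in DDX41 knockdown. Its exons share 17.2% of their bases with TCP1 on the other strand, which had 105054 counts over all libraries against 19854 for ACAT2, and the strand setting of the counting is not given in the sources used here.

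Of the kinases and the decarboxylase that turn mevalonate into isopentenyl diphosphate, PMVK had 23.0, 21.1, 19.0, 19.8 and 20.6 CPM in control replicates 1 to 5 and 26.3, 27.7, 26.2, 25.2 and 26.1 CPM in DDX41 knockdown replicates 1 to 5. All 5 DDX41 knockdown libraries were above the control range, and the log2 fold change was 0.34 (standard error 0.05, edgeR quasi-likelihood test, adjusted p = 5.45e-07). MVK changed by less, from 24.5 ± 1.27 to 27.0 ± 0.991 CPM (SD, n = 5 each), with a log2 fold change of 0.14, and only just passed the threshold (edgeR adjusted p = 0.00993). Its call ended under 11 of 15 alternatives, among them the fits without control replicate 1, 2 or 3 or without DDX41 knockdown replicate 1, 3, 4 or 5, where the edgeR adjusted p lay between 0.0146 and 0.0453. MVK also shares exon bases with MMAB on the other strand, which had 4978 counts over all libraries against 6088. MVD, the decarboxylase, was not called, at 33.7 ± 2.14 and 35.3 ± 1.01 CPM (SD, n = 5 each, log2 fold change 0.07, edgeR adjusted p = 0.180).

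IDI1, which isomerises isopentenyl diphosphate, had 33.2, 32.4, 33.1, 32.7 and 31.1 CPM in control replicates 1 to 5 and 42.1, 37.7, 39.3, 44.9 and 40.1 CPM in DDX41 knockdown replicates 1 to 5. The groups were separate, with DDX41 knockdown replicate 4 highest and replicate 2 lowest. The log2 fold change was 0.33 (standard error 0.04, edgeR quasi-likelihood test, adjusted p = 1.21e-07). FDPS, which joins these units to farnesyl diphosphate, had 182, 175, 176, 186 and 174 CPM in control and 165, 159.8, 159.8, 173 and 170.5 CPM in DDX41 knockdown replicates 1 to 5. Its groups came within about 1 CPM of each other without overlapping, and FDPS fell by 0.11 on the log2 scale (edgeR quasi-likelihood test, adjusted p = 0.00170). Without DDX41 knockdown replicate 3 it was no longer called (edgeR adjusted p = 0.0112).

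**Figure D2:**
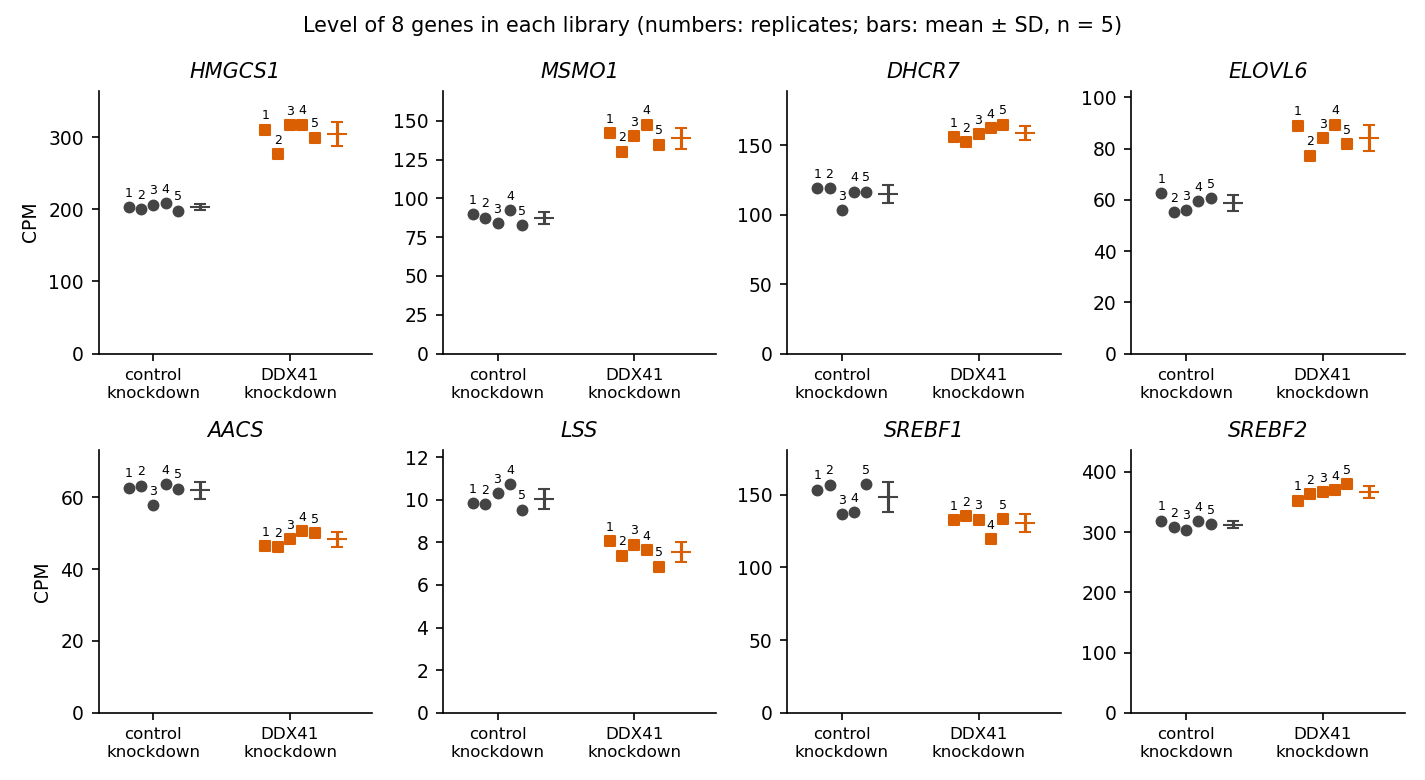
CPM of 8 members in each of the 5 control knockdown (circles) and 5 DDX41 knockdown (squares) libraries, with replicate numbers above the points, bars for mean ± SD, and axes that start at 0. HMGCS1, MSMO1, DHCR7, ELOVL6 and SREBF2 are higher and AACS, LSS and SREBF1 lower in all DDX41 knockdown libraries, and SREBF1 has the smallest gap between groups relative to its spread.

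The 11 genes from squalene to cholesterol had 5 members higher, 2 lower and 4 not called, with a median log2 fold change of 0.26. Thus 45.5% were higher and 18.2% lower, beside 30.3% and 32.1% of all tested genes. MSMO1, an oxidase that begins the removal of methyl groups from the sterol ring, had the highest log2 fold change of all members and lies at chr4:165327667-165343164 (ENSG00000052802.12). It stood at 89.6, 87.4, 83.9, 92.2 and 82.6 CPM in control replicates 1 to 5 and at 142, 130.1, 140.0, 147 and 135 CPM in DDX41 knockdown replicates 1 to 5. No library of either group came near the other, although replicate 4 was highest within both. The means were 87.2 ± 3.96 and 139 ± 6.72 CPM (SD, n = 5 each), and MSMO1 rose by 0.67 on the log2 scale (standard error 0.04, edgeR quasi-likelihood test, Benjamini-Hochberg adjusted p = 2.83e-16). NSDHL and HSD17B7 act with MSMO1 on the same methyl groups. NSDHL, at 49.5 ± 2.51 and 60.1 ± 1.87 CPM (SD, n = 5 each), rose by 0.28 on the log2 scale (edgeR adjusted p = 1.18e-07). HSD17B7, at 16.003 ± 1.41 and 16.8 ± 0.773 CPM, was not called (SD, n = 5 each, log2 fold change 0.07, edgeR adjusted p = 0.295), and its copy HSD17B7P2 had 904 counts over all libraries against 3879 for the gene itself.

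LSS, the cyclase that closes the ring system of lanosterol, had the lowest log2 fold change of all members and lies at chr21:46188141-46228824 (ENSG00000160285.14). Its level was 9.84, 9.80, 10.3, 10.7 and 9.54 CPM in control replicates 1 to 5 and 8.05, 7.38, 7.90, 7.62 and 6.85 CPM in DDX41 knockdown replicates 1 to 5. Even its lowest control library exceeded every DDX41 knockdown library. LSS fell by 0.41 on the log2 scale (standard error 0.07, edgeR quasi-likelihood test, Benjamini-Hochberg adjusted p = 4.58e-06), on 161 to 251 counts per library. The enzymes on either side of it did not fall with it. SQLE, the epoxidase just before it, had 209, 199, 205, 210.3 and 201 CPM in control replicates 1 to 5 and 242, 240.5, 245, 254 and 247 CPM in DDX41 knockdown replicates 1 to 5. Its groups were separate and each had little spread, and the log2 fold change was 0.26 (standard error 0.03, edgeR quasi-likelihood test, adjusted p = 5.92e-10).

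FDFT1, the squalene synthase that commits farnesyl diphosphate to sterols, had 199, 188, 186, 206 and 196 CPM in control replicates 1 to 5 and 179.9, 178, 174, 188 and 185 CPM in DDX41 knockdown replicates 1 to 5. The groups overlapped, since control replicate 3 lay below DDX41 knockdown replicate 4. FDFT1 fell by 0.11 on the log2 scale (edgeR quasi-likelihood test, adjusted p = 0.00281). It was not called without control replicate 4 (edgeR adjusted p = 0.0160), without DDX41 knockdown replicate 3 (edgeR adjusted p = 0.0171) or with DESeq2's Wald test (adjusted p = 0.0132).

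CYP51A1, the demethylase that acts on lanosterol, was counted at only 2.37, 3.67, 2.57, 2.57 and 2.79 CPM in control replicates 1 to 5 and 3.13, 3.91, 4.68, 2.90 and 2.98 CPM in DDX41 knockdown replicates 1 to 5, or 58 to 116 counts per library. The groups overlapped and it was not called (log2 fold change 0.34, standard error 0.14, edgeR adjusted p = 0.0353). Leaving out control replicate 2 alone brought it past the threshold, with a log2 fold change of 0.46 (edgeR adjusted p = 0.00369). Its level is uncertain. It shares 2.59% of its exon bases with AKAP9 on the other strand, which had 15764 counts over all libraries against 748 for CYP51A1, and the genome holds processed copies such as CYP51A1P1 and CYP51A1P2 with 12 counts each. Neither the strand setting nor what was done with reads of several matches is given in the sources used here.

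DHCR7, the reductase that ends a branch of the pathway in cholesterol, had 119, 119, 103, 116 and 116 CPM in control replicates 1 to 5 and 156, 152, 158, 162 and 165 CPM in DDX41 knockdown replicates 1 to 5. The groups were separate, and control replicate 3 was well below the other control libraries. DHCR7, at chr11:71428193-71452868 (ENSG00000172893.15), rose by 0.46 on the log2 scale (standard error 0.03, edgeR quasi-likelihood test, adjusted p = 1.03e-12). SC5D, a sterol desaturase at 64.2 ± 2.38 and 79.9 ± 3.15 CPM (SD, n = 5 each), rose by 0.32 (edgeR adjusted p = 3.06e-09). EBP, a sterol isomerase, had 54.4 ± 2.28 and 52.3 ± 3.40 CPM and TM7SF2, a sterol reductase, 6.94 ± 0.4996 and 6.47 ± 0.817 CPM (SD, n = 5 each). Neither was called, with log2 fold changes of -0.06 and -0.10 (edgeR adjusted p = 0.231 and 0.296). TM7SF2 shares 18 exon bases with VPS51 on the same strand, which had 7354 counts over all libraries against 1586.

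The mevalonate and sterol steps were also taken as 1 route of 19 enzymes. Of these, 10 were higher and 4 lower after DDX41 knockdown, beside 30.3% and 32.1% of all tested genes. Genes called in opposite directions stood next to each other at several steps. Levels per transcript length also ranged widely along the route. In control knockdown, FDPS had 126 ± 3.64 and FDFT1 95.7 ± 3.92 CPM per kb (SD, n = 5 each), whereas LSS had 2.06 ± 0.0975 and TM7SF2 4.40 ± 0.317 CPM per kb (SD, n = 5 each).

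The 5 genes of SREBP regulation and sterol transfer were all called, 3 higher and 2 lower, with a median log2 fold change of 0.12. These are 60% and 40% of the genes, beside 30.3% and 32.1% of all tested genes. The genes of the SREBPs themselves moved in opposite directions. SREBF2, at chr22:41833105-41907306 (ENSG00000198911.11), had 319, 308, 304, 318 and 314 CPM in control replicates 1 to 5 and 352, 363, 367, 369 and 379.7 CPM in DDX41 knockdown replicates 1 to 5. Its groups were separate, and the log2 fold change was 0.23 (standard error 0.03, edgeR quasi-likelihood test, Benjamini-Hochberg adjusted p = 8.22e-09).

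SREBF1, at chr17:17810399-17837002 (ENSG00000072310.16), had 154, 157, 137, 138 and 157 CPM in control replicates 1 to 5 and 132, 135, 133, 119 and 133 CPM in DDX41 knockdown replicates 1 to 5. Control replicates 3 and 4 came close to the DDX41 knockdown libraries, of which replicate 4 was the lowest, and the groups did not overlap. SREBF1 fell by 0.19 on the log2 scale (standard error 0.04, edgeR quasi-likelihood test, Benjamini-Hochberg adjusted p = 7.33e-04). Of its exon bases, 6.75% are shared with RAI1 on the other strand, which had 10546 counts over all libraries against 33086 for SREBF1.

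INSIG1, which retains the SCAP-SREBP complex and is itself a target of SREBPs, had 39.0, 34.4, 35.2, 39.2 and 33.6 CPM in control replicates 1 to 5 and 41.8, 37.5, 44.1, 43.7 and 42.9 CPM in DDX41 knockdown replicates 1 to 5. DDX41 knockdown replicate 2 fell below control replicates 1 and 4, and the groups overlapped. INSIG1 nevertheless rose, with a log2 fold change of 0.21 (standard error 0.05, edgeR quasi-likelihood test, adjusted p = 3.69e-04). SCAP, the escort, went from 121 ± 3.80 to 109.8 ± 5.21 CPM (SD, n = 5 each) and so fell by 0.14 on the log2 scale (edgeR adjusted p = 3.28e-04). STARD4, which carries sterols between membranes, was at 112 ± 1.76 and 121 ± 4.73 CPM (SD, n = 5 each) and rose by 0.12 (edgeR adjusted p = 0.00108).

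Of the 5 fatty acid synthesis genes, 2 were higher (40%), 1 was lower (20%) and 2 were not called, beside 30.3% and 32.1% of all tested genes. ELOVL6, which elongates saturated fatty acids and lies at chr4:110045846-110199199 (ENSG00000170522.9), had 62.7, 55.2, 56.1, 59.6 and 60.6 CPM in control replicates 1 to 5 and 88.9, 77.2, 84.1, 89.3 and 81.7 CPM in DDX41 knockdown replicates 1 to 5. The groups were clearly separate, with DDX41 knockdown replicate 2 lowest in its group. ELOVL6 rose with a log2 fold change of 0.52 (standard error 0.04, edgeR quasi-likelihood test, Benjamini-Hochberg adjusted p = 8.10e-12). SCD, the desaturase that makes monounsaturated fatty acids, had the highest level per length of all members, 131 ± 7.496 CPM per kb in control knockdown (SD, n = 5). It was counted at 711, 643, 663, 741 and 676 CPM in control replicates 1 to 5 and 794, 734, 762, 792 and 792 CPM in DDX41 knockdown replicates 1 to 5. Control replicate 4 exceeded DDX41 knockdown replicate 2, so the groups overlapped, and the log2 fold change was 0.17 (edgeR quasi-likelihood test, adjusted p = 5.31e-05).

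ACLY, which makes cytosolic acetyl-CoA from citrate for both branches, had 457, 430.4, 425, 440.3 and 432 CPM in control replicates 1 to 5 and 371, 393, 382, 399 and 403 CPM in DDX41 knockdown replicates 1 to 5. All DDX41 knockdown libraries were below the control range, and ACLY fell by 0.17 on the log2 scale (standard error 0.03, edgeR quasi-likelihood test, adjusted p = 5.25e-06). FASN, the fatty acid synthase, had 346, 404, 317, 346 and 369 CPM in control replicates 1 to 5 and 401, 384, 421, 363 and 390.1 CPM in DDX41 knockdown replicates 1 to 5. It varied more between control libraries than most members, with replicate 2 high and replicate 3 low, and was not called (log2 fold change 0.14, standard error 0.06, edgeR adjusted p = 0.0725). Without control replicate 2 it was called higher, with a log2 fold change of 0.18 (edgeR adjusted p = 6.74e-04).

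ACACA, which makes malonyl-CoA, was counted at 0.368, 0.408, 0.673, 0.556 and 0.4999 CPM in control replicates 1 to 5 and 0.598, 0.521, 0.645, 0.511 and 0.596 CPM in DDX41 knockdown replicates 1 to 5, or 9 to 16 counts per library. These counts cannot be read as the expression of ACACA. It lies at chr17:37084992-37406836, and 18 protein-coding genes, itself included, lie within 600000 bases on either side. Of these, 7 had no counts in any library, among them AATF, MYO19 and ZNHIT3, and the highest, DDX52, reached 3.85 CPM in control knockdown. That level was at or above the control level of 43.9% of all protein-coding genes. The cause was not tested, and ACACA was not called (log2 fold change 0.20, standard error 0.24, edgeR adjusted p = 0.481). Without ACACA and CYP51A1, a choice made after the data were seen, the counts of members higher and lower were again 15 and 7, and the median log2 fold change was 0.14.

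The summed CPM of the 29 members was 3785, 3698, 3556, 3808 and 3696 in control replicates 1 to 5 and 4099, 3974, 4109, 4162 and 4150.1 in DDX41 knockdown replicates 1 to 5. The mean of the sum in DDX41 knockdown was 111% of that in control knockdown, and SCD alone made up 18.5% of the control sum. Control replicate 3 was below its group's mean for 24 of the 29 members, beside 49.9% of all tested genes, and control replicate 4 for 5 members, beside 48.4%. In the DDX41 knockdown group, replicate 2 was below the mean for 21 members, beside 48.9% of all tested genes, and replicate 4 for 9, beside 48.6%. Single libraries thus differed in the same direction over many of these genes. These libraries were picked out after their values were seen, and the source of the differences was not tested.

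The same tendency appeared when each library's log2 CPM was taken as a deviation from its own group's mean and members were correlated over the 10 libraries. Among 24 members with a mean of at least 20 CPM, the median Pearson correlation of 276 pairs was 0.386, and 73.9% of the pairs were positive. For all pairs of 7510 tested genes in the same range of CPM, the median was 0.0127 and 51.1% were positive. Over the 5 control libraries alone the members had a median of 0.480 with 80.4% of pairs positive, and over the 5 DDX41 knockdown libraries alone 0.259 with 61.2% positive. All tested genes of that range had 0.0300 with 51.7% and 0.00778 with 50.5%. All pairs share the same libraries and their depth, so the correlations are a description only. Without DDX41 knockdown replicate 2, left out after the data were seen, the median of the members was 0.328. Among 15 members of the mevalonate and sterol steps the median was 0.521, with 0.540 in the control group alone and 0.525 in the DDX41 knockdown group alone. The 15 members called higher had 0.470, with 0.520 and 0.492 in the groups alone. Without DDX41 knockdown replicate 2, the median was 0.449 for the mevalonate and sterol members and 0.358 for the members called higher. The correlations were not computed without any other library. The share of positive pairs was 87.6% in control and 75.2% in DDX41 knockdown for the former set, and 86.7% and 76.2% for the latter. No difference between groups was tested. Genes that moved apart between the groups could still vary together within them. AACS, which fell, and DHCR7, which rose, had a correlation of 0.904, the highest that either reached with any of these members. FDPS and FDFT1, both lower in DDX41 knockdown, had median correlations of 0.566 and 0.533 with the other members. SREBF1 and SCAP stood outside this shared variation, with medians of -0.177 and -0.184, and the closest member to SREBF1 was FASN, at 0.755.

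**Figure D3:**
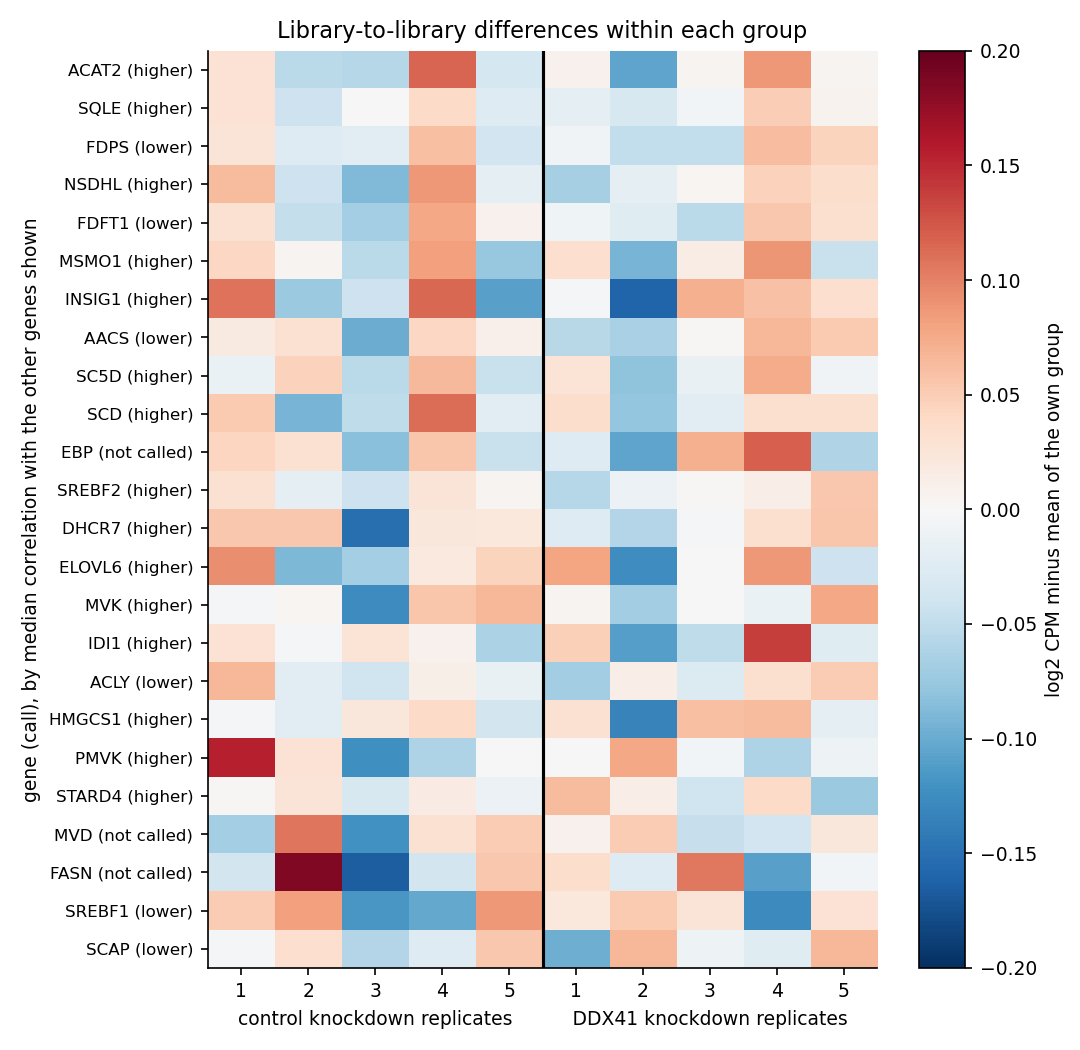
Log2 CPM of 24 members in each library minus the mean of the library's own group, with genes ordered by their median correlation with the others. Red cells are above and blue cells below the group mean. Control replicate 3 and DDX41 knockdown replicate 2 are blue for most genes and replicate 4 of both groups is red for most, while SCAP, SREBF1, FASN and MVD at the bottom follow other patterns.

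A further 120 genes of lipid metabolism in 6 lists were set beside the members, and 115 of them were tested. Of these 115, 45 were higher and 35 lower in DDX41 knockdown (edgeR, adjusted p under 0.01), with a median log2 fold change of 0.04. These are 39.1% and 30.4% of the genes, beside 30.3% and 32.1% of all tested genes. Among 13 genes of SREBP processing and turnover, 4 were higher (30.8%) and 5 lower (38.5%), close to the shares over all tested genes, with a median of -0.05. The largest changes were in the genes of a pair of related endoplasmic reticulum proteins that bind cholesterol. ERLIN1 had 156, 159, 151, 156 and 155 CPM in control replicates 1 to 5 and 69.6, 70.7, 73.5, 72.8 and 69.8 CPM in DDX41 knockdown replicates 1 to 5. ERLIN2 had 89.9, 89.1, 94.4, 84.4 and 88.5 CPM in control and 163, 156, 157, 157 and 157 CPM in DDX41 knockdown replicates 1 to 5. The partners thus moved in opposite directions with wide gaps between groups, at log2 fold changes of -1.12 and 0.82 (standard error 0.03 each, edgeR quasi-likelihood test, adjusted p = 1.37e-23 and 5.16e-20). FBXW7, a ubiquitin ligase subunit that directs nuclear SREBPs to degradation, had 0.63, and SPRING1, a factor needed for SREBP cleavage, had -0.42 (edgeR adjusted p = 4.25e-15 and 2.79e-13).

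All 16 genes of the isoprenoid branch outside sterol synthesis were tested, and 9 were higher (56.25%) and 2 lower (12.5%), beside 30.3% and 32.1% of all tested genes, with a median log2 fold change of 0.21. DOLK, a kinase of dolichol, had a log2 fold change of 0.48, and PDSS1, which builds the tail of coenzyme Q, had 0.39 (edgeR adjusted p = 2.85e-10 and 3.35e-07). ZMPSTE24, a protease of prenylated proteins, and GGPS1, which makes geranylgeranyl diphosphate from the product of FDPS, had -0.33 and -0.31 (edgeR adjusted p = 5.30e-07 and 1.51e-07). PDSS1 shares 10.8% of its exon bases with ABI1 on the other strand, which had 24094 counts over all libraries against 3528 for PDSS1, and GGPS1 shares 3.62% with ARID4B on the other strand (12924 against 9018 counts).

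In the list of sterol uptake, transport, storage and efflux, 22 of 24 genes were tested, with 7 higher (31.8%), 7 lower (31.8%) and a median log2 fold change of 0.01. Both shares are near the 30.3% and 32.1% of all tested genes. ABCA1, an exporter of sterols, had 10.3, 8.86, 13.0, 9.33 and 9.87 CPM in control replicates 1 to 5 and 2.94, 3.52, 2.46, 2.26 and 2.13 CPM in DDX41 knockdown replicates 1 to 5. Every DDX41 knockdown library was below every control library, and ABCA1 fell by 1.95 on the log2 scale (standard error 0.13, edgeR quasi-likelihood test, adjusted p = 1.64e-11). GRAMD1A, a carrier of sterols from the plasma membrane, fell by 0.80 (edgeR adjusted p = 1.07e-13). SMPDL3A, a lysosomal-type phosphodiesterase, had a log2 fold change of 0.93, and LIPA, which frees cholesterol from esters in lysosomes, had 0.62 (edgeR adjusted p = 1.88e-12 and 1.48e-16).

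The list of fatty acid elongation, desaturation and activation held 23 tested genes of 25, of which 10 were higher (43.5%) and 10 lower (43.5%), beside 30.3% and 32.1% of all tested genes, with a median log2 fold change of -0.01. Under the rule that also requires an absolute log2 fold change over 0.5, 6 of the 23 were lower and 1, ACSL4, was higher, where 15.7% and 9.81% of all tested genes were. FADS2, a desaturase of polyunsaturated fatty acids, had 458, 416, 410.1, 442 and 439.8 CPM in control replicates 1 to 5 and 249.8, 248, 241, 251 and 261 CPM in DDX41 knockdown replicates 1 to 5. Its groups were widely apart, and FADS2 fell by 0.79 (standard error 0.03, edgeR quasi-likelihood test, adjusted p = 1.25e-19). It shares 4.64% of its exon bases with FADS1 on the other strand and 0.464% with FEN1 on its own, which had 75067 and 49711 counts over all libraries against 81193. SLC25A1, which exports the citrate that ACLY uses, fell by 0.83 (edgeR adjusted p = 7.29e-19). The other genes under -0.5 were FADS3 at -0.75, SCD5 at -0.75, ELOVL7 at -0.67 and ACSS2, which makes acetyl-CoA from acetate, at -0.51, and these 4 were named after their values were seen. ACSL4, which activates polyunsaturated fatty acids, had a log2 fold change of 0.60, and HSD17B12, a reductase of the elongation cycle, had 0.47 (edgeR adjusted p = 1.18e-14 and 2.86e-11).

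For triglyceride and phospholipid assembly, 22 of 23 genes were tested, with 7 higher (31.8%), 5 lower (22.7%) and a median log2 fold change of 0.03, beside 30.3% and 32.1% of all tested genes. AGPAT2, an acyltransferase, had 0.44 and CHPT1, which makes phosphatidylcholine, had 0.26, while the phosphatidate phosphatase genes LPIN3 and LPIN2 had -0.65 and -0.28 (edgeR adjusted p = 1.92e-04, 5.35e-06, 4.42e-10 and 4.47e-08). Of 19 genes of mitochondrial fatty acid oxidation, 8 were higher (42.1%) and 6 lower (31.6%), beside the same shares of all tested genes, with a median of 0.07. ETFDH, which passes electrons from this oxidation to ubiquinone, had 0.86 and the isomerase ECI2 0.49, while the dehydrogenases ACADS and HADH had -0.62 and -0.27 (edgeR adjusted p = 7.09e-14, 2.89e-13, 1.06e-07 and 8.33e-07). ETFDH shares 5.98% of its exon bases with PPID and 1.085% with C4orf46, both on the other strand, which had 15969 and 9815 counts over all libraries against 4637. CPT1A, which admits fatty acids to mitochondria, and PPARGC1A, a coactivator of the pathway, had log2 fold changes of 0.91 and -1.08 at under 5 CPM in control knockdown, and were named after their values were seen (edgeR adjusted p = 2.91e-07 and 1.50e-07).

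**Figure D4:**
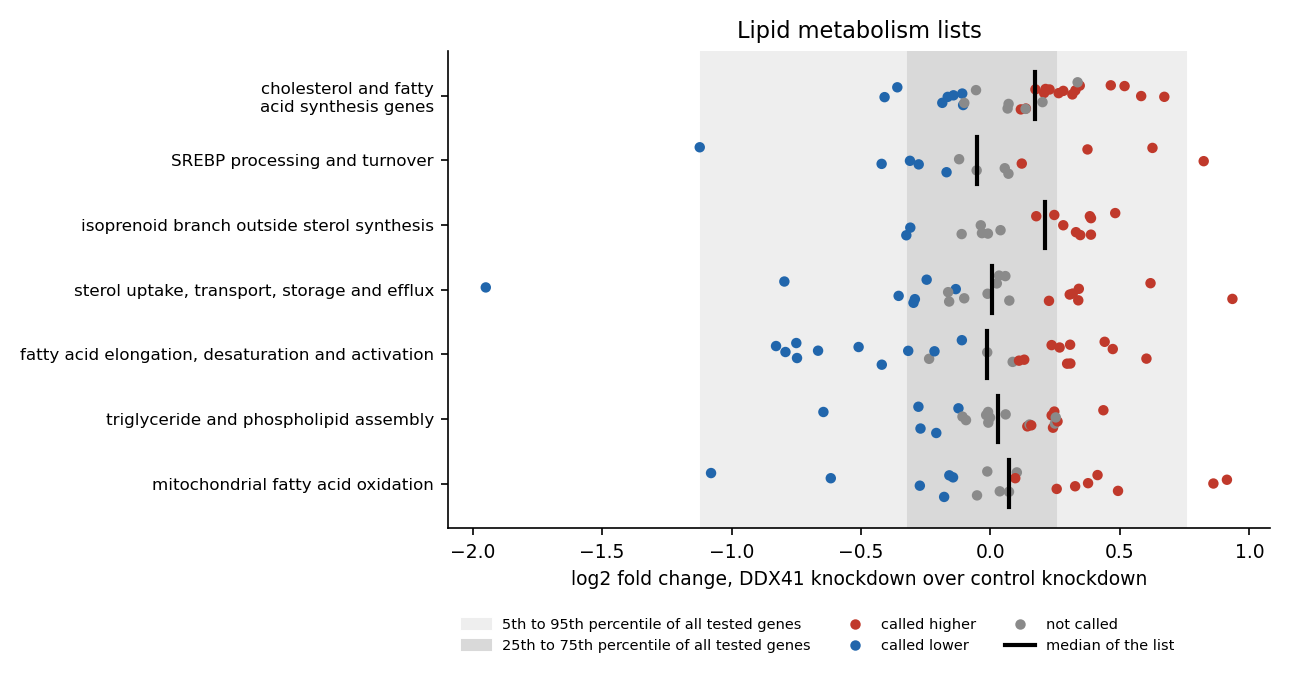
Log2 fold change of every tested gene (points) in the 29 synthesis genes and in 6 other lipid lists, with the median of each list as a black line and shading for the middle range of all 16143 tested genes. The medians of the 6 other lists lie between -0.05 and 0.21.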

How the data were processed

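The authors prepared libraries from polyadenylated RNA with a stranded kit, sequenced single reads of 84 bases, aligned these with STAR 2.7 to hg38 under the Gencode 25 annotation, and deposited whole read counts per gene from featureCounts 1.6 without normalization. The strand setting and the treatment of reads with several matches are not given in the sources used here. Groups and replicate numbers follow the sample labels.

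Counts were joined to GENCODE release 44 on the same build by identifier, and 98.7% of tested genes matched. Genes were filtered with filterByExpr from edgeR 4.0.16 (R 4.3.3), scaled by TMM and tested with robust quasi-likelihood fits, with Benjamini-Hochberg adjustment over all 16143 tested genes, calls at an adjusted p under 0.01, and under a second rule also an absolute log2 fold change over 0.5. The test was checked on simulated data for the same comparison: among 15869 genes, 79.5% of 200 genes raised or lowered 1.5 times were recovered, with 3 false calls. Most members changed by less than 1.5 times, and in the real data 30.3% and 32.1% of tested genes were called higher and lower. The check therefore does not cover changes of that size or so large a share of changed genes. CPM used TMM-scaled library sizes, and CPM per kb used the canonical transcript. Standard errors come from the quasi-likelihood statistic. Depth limits genes with few counts, such as CYP51A1, and the cause of the low ACACA counts was not tested. Alternatives were DESeq2 size factors, total counts, no filter, the Wald test of DESeq2 1.42.0, a replicate block, each library left out and an adjusted p under 0.05. Correlations and promoter matches were computed in Python 3.11.15.

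The members and lists were chosen with earlier results of these data known. Named genes are DDX41, all members and, from each other list, up to 2 called genes in each direction with the largest change at a mean of at least 5 CPM. The other called genes of these lists beyond an absolute log2 fold change of 0.5 were added after their values were seen. Promoter windows come from RefSeq. Protein sequences were not used here.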

Additional observations from a re-analysis of the deposited data

Results flagged for a closer look

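In each group of 5 libraries, the lowest and highest CPM of every member and of DDX41 were checked for a library far from the rest, by the gap to its neighbour relative to the range of the group. This was done for 60 groups, of which 3 held such a library, and chance alone marks about 1 in 20 groups. DHCR7 in control knockdown replicate 3 was at 103 CPM, below the next library at 116 CPM, and AACS in the same library was at 57.8 CPM, below the next at 62.4 CPM. SREBF1 in DDX41 knockdown replicate 4 was at 119 CPM, below the next at 132 CPM. DHCR7, AACS and SREBF1 kept their direction and their call when each library was left out in turn, with log2 fold changes of 0.43 to 0.48 for DHCR7, -0.38 to -0.34 for AACS and -0.22 to -0.16 for SREBF1. The source of these values was not tested.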

How the results depend on the processing

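No named gene that was called reversed its direction under any of 15 alternatives (other scaling, no filter, DESeq2, the replicate block or a library left out). Of the 22 called members, 19 kept their call in all of them, and MVK, FDPS and FDFT1 did not; CYP51A1 and FASN gained a call without control knockdown replicate 2. The cause was not tested. The 30 named genes of the other lists kept their calls in all 15. Leaving out each library gave 14 to 16 members higher and 5 to 7 lower, and 42 to 45 genes of the other lists higher and 33 to 36 lower. The median log2 fold change of the members was then 0.14 to 0.20, with the lowest value without control knockdown replicate 1, and it was 0.14 without ACACA and CYP51A1, chosen after the data were seen. With an absolute log2 fold change over 0.5 required, 3 of the 29 members were higher and 0 lower. Of the 115 tested genes of the other lists, 7 were higher and 12 lower, beside 9.81% and 15.7% of all tested genes. These smaller counts follow from the stricter rule.

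Replicate numbers are shared between the groups, but deviations from the group mean in libraries with the same number had correlations of -0.0524 to 0.0446. Only 1 of 10 libraries correlated best with its own number. No pairing by number was visible over all tested genes together, which cannot exclude a shared effect on a smaller set of genes. With the replicate block, 14 members were higher and 7 lower, and 4790 and 5097 of all tested genes instead of 4890 and 5178.

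Depth limits genes with few counts: CYP51A1 had 58 to 116 counts per library. ACACA had 9 to 16, and the cause of its low counts was not tested.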
